A study of Homo sapiens with 6 samples.

Results

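The genes described here encode the folding and quality-control machinery of the endoplasmic reticulum (ER). They were 34 named genes, chosen by symbol: chaperones of the ER lumen, disulfide isomerases, factors of ER-associated degradation (ERAD), stress sensors and parts of the protein translocation channel. A gene was read through the probe set that carries its symbol alone in the platform table and was brightest over all 6 arrays. By that rule 33 of the 34 had a probe set, out of 19775 genes on the array. SYVN1 was the exception, since its probe set also carries the symbol of a microRNA gene. All 33 lay above the array median on at least 2 arrays and were tested among 12735 genes.

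RNA came from RT-112, an established line of human bladder cancer cells, after knockdown of PPP2R2A, which encodes a regulatory B subunit of protein phosphatase 2A. The 3 groups received scramble siRNA as the control, siPPP2R2A_1 (siRNA 1) or siPPP2R2A_2 (siRNA 2), each at 50 nM, and each group has 2 oligonucleotide arrays, A and B. Every group, the control included, was transfected with Lipofectamine RNAiMAX, again 24 h later, and harvested after another 24 h. The series' design text describes the arrays of a group as technical duplicates of one cell line, so the p-values measure the technical spread between arrays, not the spread between cultures.

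Proteins that enter the secretory pathway pass through the translocation channel into the ER, where chaperones, lectins and isomerases help them fold. Proteins that fail are drawn back into the cytosol and degraded by the proteasome, a route called ERAD. When unfolded proteins build up, the sensors IRE1 (gene ERN1), ATF6 and PERK raise the transcription of many of these genes, a programme called the unfolded protein response.

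PPP2R2A itself read 1381 and 1589 on the scramble arrays, 336 and 397 with siRNA 1 and 510.0 and 533 with siRNA 2, below both scramble arrays on every knockdown array. As in all bulk RNA, fewer cells with a transcript and less of it per cell cannot be told apart here. The log2 changes of PPP2R2A were -2.02 (limma adjusted p = 0.0403) and -1.51 (adjusted p = 0.0461). Duplicate arrays correlated at 0.979 to 0.980, and arrays across groups at 0.970 to 0.978. The 3' to 5' signal ratio of ACTB, a sign of RNA and labelling quality, was 5.43 and 5.94 on the scramble arrays, 6.52 and 7.82 with siRNA 1 and 7.47 and 12.4 with siRNA 2. The same ratio for GAPDH was 1.004 and 1.004 on the scramble arrays, 1.001 and 1.02 with siRNA 1 and 1.002 and 0.943 with siRNA 2. The ACTB ratio moved with the groups compared below, and its part in these results was not tested. All 7 epithelial markers, among them EPCAM and KRT18, read above the array median on every array. Of the 7 urothelial markers GATA3, PPARG, FOXA1 and UPK1B were above it on 6 arrays, UPK2 on 5, UPK1A on 1 and UPK3A on 0. Of 4 leukocyte markers PTPRC, CD14 and LYZ were above it on 0 arrays and CD3E on 2, both of siRNA 1. Of 6 fibroblast markers LUM and COL1A1 were above it on 6 arrays, DCN on 3 and COL1A2, COL3A1 and PDGFRA on 0, and of 4 endothelial markers PECAM1 and CDH5 on 6, VWF on 1 and KDR on 0.

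Summed marker signals moved with the groups. The urothelial sum was 24799 to 25511 with scramble, 21755 to 22062 with siRNA 1 and 20536 to 21130.1 with siRNA 2, so both siRNAs were below scramble. GATA3 and UPK1B, a plaque protein of the urothelium, gave most of that sum (means of 14872 and 6445 with scramble). UPK1B stood at 61.9% and 76.3% of its scramble mean, GATA3 at 90.3% and 80.3%, FOXA1 at 88.5% and 88.3% and UPK2 at 86.3% and 49.4%. PPARG lay the other way, at 128% and 112%, as did the dim UPK1A, at 205% and 107%. The dim UPK3A stood at 85.2% and 101%. The epithelial sum was 118243 to 122725 with scramble, 119763 to 124268 with siRNA 1 and 101313 to 108359 with siRNA 2. The fibroblast sum was 5920 to 6206, 6594 to 7558 and 5777 to 5782 in the same order, the leukocyte sum 89.3 to 113, 147 to 161 and 39.1 to 131, and the endothelial sum 401 to 480.0, 330 to 398 and 321 to 392. The part of these shifts in the results was not tested.

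The median change of the 33 members was slightly above 0 with both siRNAs, and 1 member, SEL1L, passed the test. The parts of the set differed. Median log2 changes with siRNA 1 and siRNA 2 were 0.31 and 0.30 for lumenal chaperones and 0.25 and 0.19 for disulfide isomerases. They were 0.044 and 0.019 for the lectin chaperone cycle, and -0.030 and 0.0039 for the ERAD genes. Translocon genes stood at -0.19 and 0.054. The 3 stress sensor and transcription factor genes (ERN1, ATF6 and XBP1) stood at -0.42 and 0.40. That median is the value of ATF6 with siRNA 1 and of XBP1 with siRNA 2, and XBP1 was above 0 with both. SEL1L is the adaptor that holds the SYVN1 ubiquitin ligase complex together. A gene was called at a limma adjusted p under 0.05, adjusted over all genes tested, with at least a 1.5-fold change. With siRNA 1, 1 of 33 members was called higher and 0 lower, where 0.212% of all genes tested were called higher and 0.181% lower. With siRNA 2, 1 of 33 was again called higher and 0 lower, against 0.440% and 0.157% of all genes. Centring the arrays on their medians left 5 genes higher and 6 lower with siRNA 1, and 1 higher and 0 lower with siRNA 2, with 0 members among them.

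The members' median log2 change was 0.14 with siRNA 1 and 0.16 with siRNA 2, where the median of all genes tested was 0.0109 and 0.0165. Above 0 stood 22 of 33 members with siRNA 1 and 26 of 33 with siRNA 2, beside 52.2% and 52.4% of all genes tested. An unadjusted limma p under 0.05 was reached by 12 members higher and 4 lower with siRNA 1, beside 9.55% and 6.65% of all genes tested. With siRNA 2 it was reached by 13 higher and 2 lower, beside 12.0% and 8.76%. Both comparisons share the scramble arrays. All siRNA 1 arrays lay above scramble for 19 members and below it for 8, where 26.7% and 22.7% of all genes tested did so. For siRNA 2 these were 18 and 3 members, beside 28.4% and 24.0% of all genes. On both arrays of both siRNAs 16 members read above both scramble arrays, which 14.7% of all genes tested did, and 2 members (EDEM1 and EDEM2) read below both, as did 10.6% of all genes. The plot of member signals by array shows which these are.

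**Figure D1:**
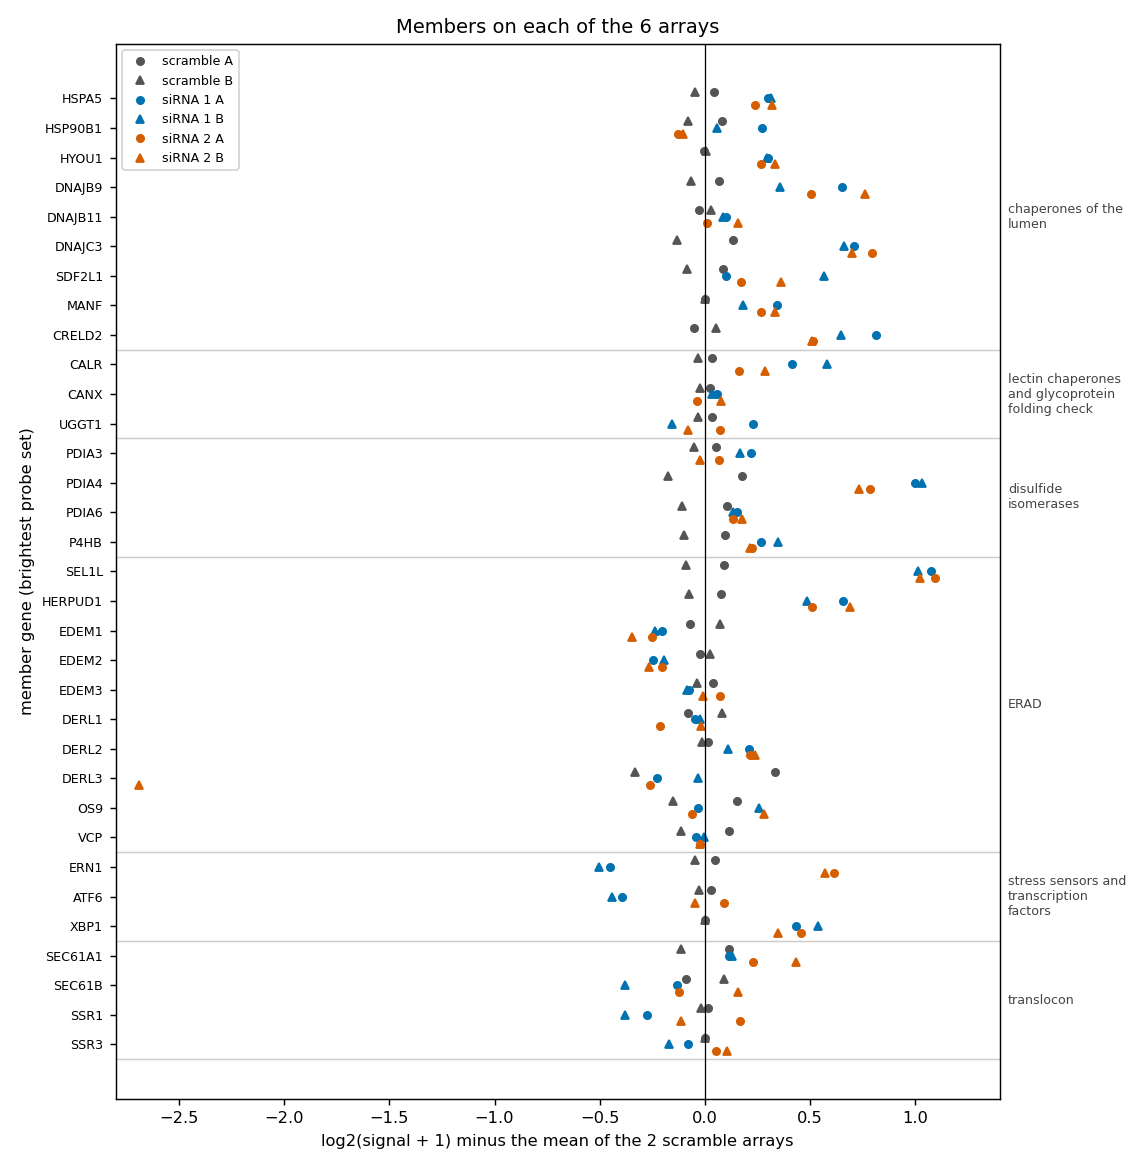
Each row is a member gene, and each point is 1 of the 6 arrays, plotted as log2(signal + 1) minus the mean of the 2 scramble arrays. Circles are A arrays and triangles B arrays. The 4 knockdown arrays lie to the right of both scramble points for 16 of the 33 members, SEL1L, PDIA4 and DNAJC3 among them, and to the left for EDEM1 and EDEM2.

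Many ER chaperone genes carry known DNA elements bound by ATF6 and XBP1, and the promoter sequences are shown here because they divide the members by a property that the array values do not use. RefSeq windows of GRCh38.p14, from 250 bases before to 50 bases after a gene's start, matched 31 of the 34 members (not DERL1, DERL3 or PDIA3). Both strands were searched for the ER stress response element (ERSE, which is CCAAT, 9 bases of any kind and CCACG), for ERSE-II (ATTGG, 1 base of any kind and CCACG) and for the unfolded protein response element (UPRE, TGACGTGG). ERSE was in 6 of 31 members (CALR, CANX, CRELD2, HSP90B1, HSPA5 and XBP1) and in 0.0806% of 27305 promoters of this length. ERSE-II was in 3 (HERPUD1, HYOU1 and SDF2L1) and in 0.0549% of promoters, and UPRE in 2 (HYOU1 and VCP) and in 0.795%. In HYOU1 the UPRE overlaps an ERSE-II. At least 1 of these elements was in 10 of 31 members and 0.927% of promoters. CCAAT and CCACG anywhere in the window were in 20 of 31 members and 12.5% of promoters. The bases before the start are printed for SEL1L, as the member called, and for the 4 members with an element and the largest mean change. They lie at chr14:81533854-81534103 on the minus strand (SEL1L), chr22:49918384-49918633 on the plus strand (CRELD2), chr16:56931892-56932141 on the plus strand (HERPUD1), chr22:28800570-28800819 on the minus strand (XBP1) and chr19:12938359-12938608 on the plus strand (CALR). Each reads 5' to 3' towards its gene, and capitals mark the element, on either strand. SEL1L holds no exact match to the 3 elements, and its capitals mark its 1 CCACG (here as CGTGG). Inexact matches were not searched for, and its bases ccaattagctggggccatg differ from ERSE at 1 base.
SEL1L: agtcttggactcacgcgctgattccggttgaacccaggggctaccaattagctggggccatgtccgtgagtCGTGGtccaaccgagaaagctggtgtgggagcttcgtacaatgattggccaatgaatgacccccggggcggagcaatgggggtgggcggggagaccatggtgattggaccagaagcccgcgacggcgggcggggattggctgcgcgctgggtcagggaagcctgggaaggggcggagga
CRELD2: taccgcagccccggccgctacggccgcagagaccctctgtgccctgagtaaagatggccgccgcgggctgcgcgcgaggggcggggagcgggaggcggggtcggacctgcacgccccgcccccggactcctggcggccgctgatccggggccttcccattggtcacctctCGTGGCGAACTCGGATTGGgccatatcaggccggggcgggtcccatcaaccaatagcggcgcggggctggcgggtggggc
HERPUD1: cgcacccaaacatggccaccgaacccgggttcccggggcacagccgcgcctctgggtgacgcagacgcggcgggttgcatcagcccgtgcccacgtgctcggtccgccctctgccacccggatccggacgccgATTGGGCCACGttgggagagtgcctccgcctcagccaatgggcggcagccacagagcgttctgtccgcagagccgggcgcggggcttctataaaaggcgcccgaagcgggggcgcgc
XBP1: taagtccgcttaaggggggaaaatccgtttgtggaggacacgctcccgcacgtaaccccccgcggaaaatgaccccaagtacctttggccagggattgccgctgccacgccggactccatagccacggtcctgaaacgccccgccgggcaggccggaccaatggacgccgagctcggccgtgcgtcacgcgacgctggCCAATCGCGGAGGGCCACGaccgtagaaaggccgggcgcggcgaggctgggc
CALR: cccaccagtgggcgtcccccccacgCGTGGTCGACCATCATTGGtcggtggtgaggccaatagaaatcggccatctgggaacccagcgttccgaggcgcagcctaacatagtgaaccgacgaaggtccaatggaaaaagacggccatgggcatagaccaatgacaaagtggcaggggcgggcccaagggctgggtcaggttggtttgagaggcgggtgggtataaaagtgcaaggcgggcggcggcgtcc

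In the other members the matches were as follows, each written in the direction of the motif. HSP90B1 holds a pair of ERSE matches, and HYOU1 holds its ERSE-II at 2 places.
HSPA5: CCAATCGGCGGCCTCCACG
HSP90B1, first: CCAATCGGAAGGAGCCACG
HSP90B1, second: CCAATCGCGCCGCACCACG
CANX: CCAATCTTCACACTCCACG
HYOU1, ERSE-II (at both places): ATTGGACCACG
HYOU1, UPRE: TGACGTGG
SDF2L1: ATTGGTCCACG
VCP, UPRE: TGACGTGG
The tested members with an element had a median log2 change of 0.32 with siRNA 1 and 0.27 with siRNA 2 (n = 10 genes). Members with a window but no exact element had 0.10 and 0.13 (n = 20 genes), and SEL1L is among them. The ranges overlapped, from -0.0233 to 0.73 with an element and from -0.48 to 1.04 without one for siRNA 1. For siRNA 2 they ran from -0.12 to 0.60 with an element and from -0.30 to 1.06 without one. Above 0 stood 9 of 10 with an element and 12 of 20 without one for siRNA 1, and 8 of 10 and 17 of 20 for siRNA 2. A match is a description of these letters and shows no binding.

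Among the 9 chaperones and cofactors of the ER lumen, 0 were called with either siRNA, while all 9 read above 0 with siRNA 1 and 8 with siRNA 2. Their median log2 changes were 0.31 and 0.30. With each siRNA 6 of them were higher at an unadjusted limma p under 0.05, beside 9.55% and 12.0% of all genes tested. DNAJC3, a co-chaperone that also inhibits the kinase PERK, gave signals of 2586 and 2154 on the scramble arrays, 3858 and 3726 with siRNA 1 and 4099 and 3834 with siRNA 2. All 4 knockdown arrays stood above both scramble arrays, without overlap. The log2 changes were 0.68 ± 0.118 (SE, adjusted p = 0.108) and 0.75 ± 0.118 (adjusted p = 0.0723). CRELD2, a secreted ER stress protein, gave 2962 and 3192 on the scramble arrays, 5411 and 4812 with siRNA 1 and 4391 and 4377 with siRNA 2. It too was higher on every knockdown array, and the siRNA 1 arrays were the highest. Its log2 changes were 0.73 (adjusted p = 0.0800) and 0.51 (adjusted p = 0.0888).

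DNAJB9, a cofactor that turns off IRE1, gave signals of 1946 and 1777 on the scramble arrays, 2921 and 2385 with siRNA 1 and 2637 and 3149.7 with siRNA 2. The groups did not overlap with scramble, but the arrays within each siRNA group lay further apart than for DNAJC3. The log2 changes were 0.51 (adjusted p = 0.234) and 0.63 (adjusted p = 0.123). HSPA5, which encodes BiP, the main chaperone of the lumen and the protein that holds the sensors inactive, gave 23727 and 22284 on the scramble arrays, 28264 and 28612 with siRNA 1 and 27078 and 28642 with siRNA 2. BiP's transcript thus stood at 124% and 121% of its scramble mean, with no overlap (adjusted p = 0.208 and 0.168). The nucleotide exchange factor HYOU1 was close to it in size, at 123% and 123% (log2 changes 0.30 and 0.30, adjusted p = 0.193 and 0.132).

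The remaining members of this group had smaller or more scattered values. MANF, a secreted cofactor of BiP, stood at log2 changes of 0.26 and 0.30, and SDF2L1, which works with DNAJB11, at 0.33 and 0.27. Neither overlapped with scramble, although SDF2L1 read 1642 and 2270.0 on the siRNA 1 arrays. DNAJB11, a co-chaperone of BiP, stood at 0.0920 and 0.0835. HSP90B1 (GRP94, the ER form of HSP90) was the 1 chaperone below 0 with siRNA 2, at 0.16 and -0.12. Its probe set is of a type that can also bind related transcripts.

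**Figure D2:**
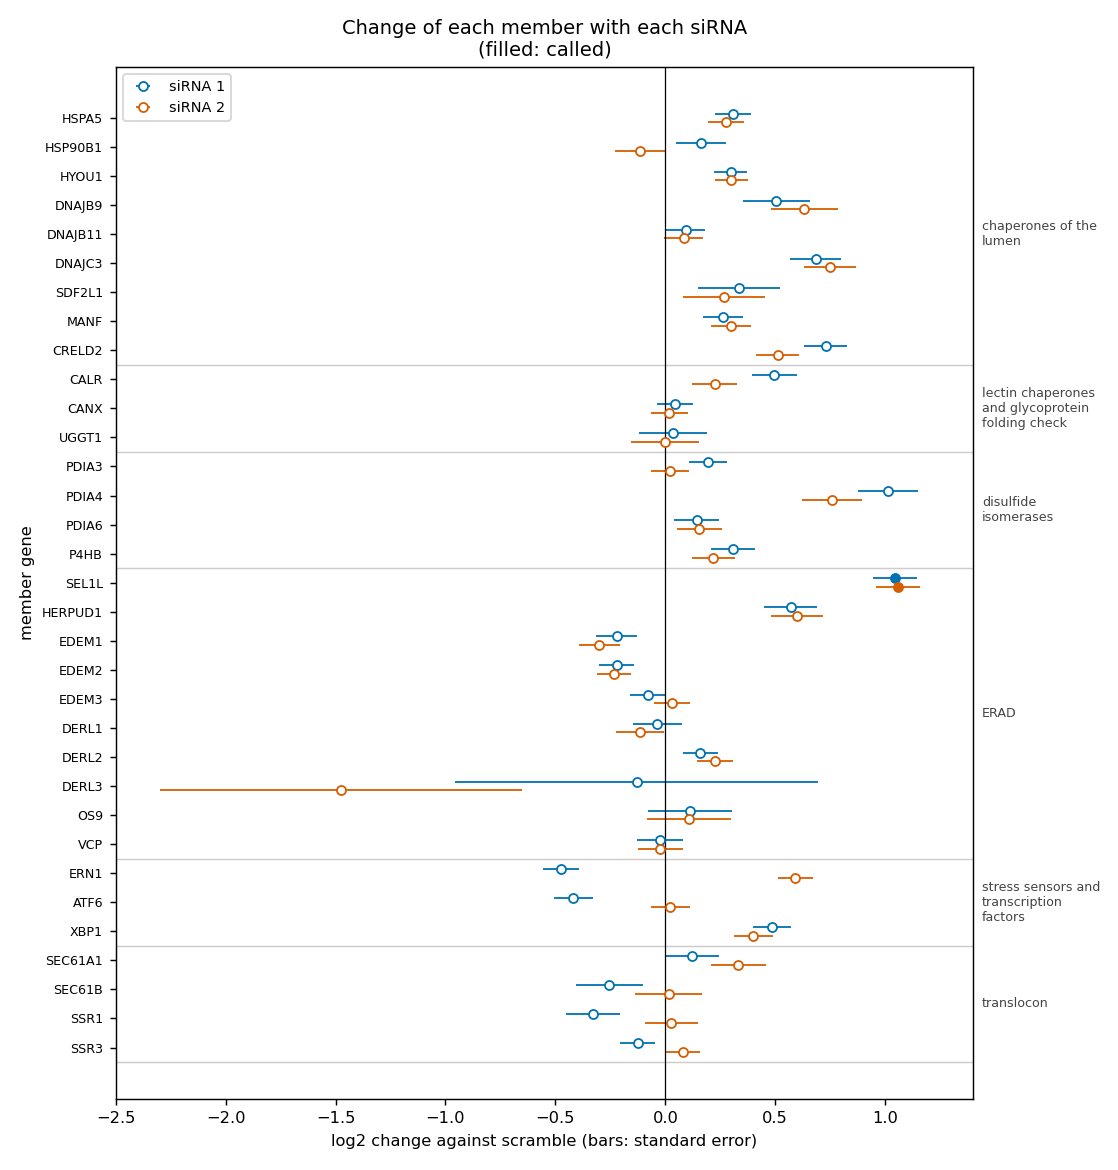
Log2 change of each member against scramble with siRNA 1 (blue) and siRNA 2 (orange), with bars for the standard error of the limma fit over all 6 arrays. Filled points are called. Only SEL1L is filled among the 33 members, at 1.04 and 1.06, while ERN1 lies on opposite sides of 0.

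All 4 disulfide isomerases, which form and rearrange disulfide bonds, read above 0 with both siRNAs on the brightest probe set. By limma 0 of these were called. At an unadjusted p under 0.05, 2 were higher with siRNA 1 and 1 with siRNA 2, beside 9.55% and 12.0% of all genes tested. PDIA4 (ERp72) had the largest values of them, with signals of 2512 and 1972 on the scramble arrays, 4441 and 4552 with siRNA 1 and 3833 and 3702 with siRNA 2. Every knockdown array was above both scramble arrays, and the scramble arrays themselves differed more than the siRNA duplicates did. Its level was 201% and 168% of the scramble mean (log2 changes 1.01 ± 0.136 and 0.76 ± 0.136, SE). The adjusted p was 0.0807 and 0.0801, and PDIA4 was called in 2 of 17 other settings with each siRNA. These were the intensity trend and the filter above the median on all 6 arrays (limma adjusted p = 0.0254 and 0.0351). That filter raised the calls over all genes too, to 134 higher with siRNA 1 and 254 with siRNA 2, from 27 and 56. The intensity trend raised them to 175 and 292. Over these 2 settings the lowest limma adjusted p of PDIA4 was 0.00045 with siRNA 1 and 0.0021 with siRNA 2. P4HB, the archetypal protein disulfide isomerase, stood at 0.31 and 0.22. PDIA6 stood at 0.14 and 0.16, and PDIA3 (ERp57), the partner of the lectin chaperones, at 0.19 and 0.0220.

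The lectin chaperones hold glycoproteins during folding, and none of the 3 genes of this cycle was called by limma (CALR reached an unadjusted p under 0.05 with siRNA 1, and 0 of them did with siRNA 2). CALR, calreticulin, gave 7721 and 7388 on the scramble arrays, 10053 and 11288 with siRNA 1 and 8461 and 9195 with siRNA 2. Its knockdown arrays all lay above scramble, those of siRNA 1 the highest, at log2 changes of 0.50 and 0.22 (adjusted p = 0.142 and 0.303). The membrane-bound CANX, calnexin, stood at 0.0439 and 0.0186. UGGT1, which senses misfolded glycoproteins and returns them to the cycle, stood at 0.0367 and -0.00331, and its groups overlapped.

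Among the 10 ERAD genes tested 1 was called, SEL1L, where 0.212% and 0.440% of all genes tested were called higher. Values lay on both sides of 0 (4 above with siRNA 1, 5 with siRNA 2). At an unadjusted limma p under 0.05, 2 ERAD genes were higher and 1 lower with siRNA 1, beside 9.55% and 6.65% of all genes tested. With siRNA 2 there were 3 higher and 2 lower, beside 12.0% and 8.76%. SEL1L read 1840.3 and 1621 on the scramble arrays, 3642 and 3484 with siRNA 1 and 3690.1 and 3507 with siRNA 2. The knockdown arrays lay between 3484 and 3690.1, all above scramble, and the log2 difference between the siRNAs was -0.0141 ± 0.0990 (SE). SEL1L rose to 206% of the scramble mean with siRNA 1 (log2 change 1.04 ± 0.0990, adjusted p = 0.0498) and to 208% with siRNA 2 (1.06 ± 0.0990, adjusted p = 0.0461). Leaving out any 1 of the 6 arrays ended both calls, with SEL1L at log2 changes of 0.95 to 1.14 (limma adjusted p of 0.161 to 0.224) for siRNA 1 and of 0.97 to 1.15 (0.124 to 0.196) for siRNA 2.

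HERPUD1, a membrane protein that organises the ligase complex, gave 4100.2 and 3688 on the scramble arrays, 6127 and 5442 with siRNA 1 and 5524 and 6279 with siRNA 2. Its siRNA arrays were all higher than scramble, at log2 changes of 0.57 and 0.60 (adjusted p = 0.147 and 0.0947). The EDEM proteins trim mannose from misfolded glycoproteins and so mark them for degradation, and 2 of the 3 genes lay the other way. EDEM1 read 2081 and 2299 on the scramble arrays, 1899 and 1855 with siRNA 1 and 1839 and 1718 with siRNA 2, and EDEM2 stood at 85.7% and 85.0% of scramble. Both were below scramble on every knockdown array, at log2 changes of -0.22 and -0.30 for EDEM1 and -0.22 and -0.23 for EDEM2, not called (adjusted p from 0.177 to 0.341). EDEM3 stood at -0.0806 and 0.0299.

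The derlins form part of the channel through which ERAD substrates leave. DERL2 stood at 0.16 and 0.23, its knockdown arrays above scramble. DERL3 was dim, with signals of 156 and 97.9 on the scramble arrays, 105 and 121 with siRNA 1 and 103 and 18.3 with siRNA 2, and 1 array of siRNA 2 read below the array median. Its log2 change of -1.48 with siRNA 2 rests on that array, for without it the change was -0.26. OS9, a lectin that hands substrates to SEL1L, and VCP (p97), the ATPase that pulls them into the cytosol, overlapped with scramble, at 0.11 and 0.11, and at -0.0233 and -0.0221. SYVN1 (HRD1), the ubiquitin ligase that SEL1L partners, lay outside the rule. Its 1 probe set, shared in name with MIR6751, read 742 and 698 on the scramble arrays, 609.5 and 664 with siRNA 1 and 678 and 594 with siRNA 2. Every knockdown array was below scramble, at log2 changes of -0.18 and -0.18 (adjusted p = 0.489 and 0.413), in a fit added after the data were seen.

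Of the sensors, ERN1 differed between the siRNAs by the test. ERN1 encodes IRE1, the kinase and nuclease that splices XBP1 mRNA. Its signals were 395 and 371 on the scramble arrays, 280.3 and 270.0 with siRNA 1 and 585 and 570.0 with siRNA 2. The siRNA 1 arrays were the lowest and the siRNA 2 arrays the highest, with scramble between them and no overlap. The log2 difference, siRNA 1 minus siRNA 2, was -1.07 ± 0.0812 (SE, adjusted p = 0.0467), and ERN1 was the 1 of 33 members called in that contrast, where 0.0864% of all genes tested were called higher and 0.126% lower with siRNA 1. Against scramble it was not called, at -0.48 (adjusted p = 0.107) and 0.59 (adjusted p = 0.0603). The call between the siRNAs ended without any 1 array (log2 difference from -1.09 to -1.04, adjusted p from 0.144 to 0.215), and the mean of the gene's probe sets gave -0.28.

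ATF6, the sensor that is cut in the Golgi to release a transcription factor, read 1553 and 1494 on the scramble arrays, 1159.9 and 1121 with siRNA 1 and 1624 and 1475 with siRNA 2. It was lower than scramble on both siRNA 1 arrays and overlapped with siRNA 2, at log2 changes of -0.42 (adjusted p = 0.150) and 0.0229 (adjusted p = 0.912). The log2 difference between the siRNAs was -0.44 (adjusted p = 0.115). XBP1, the transcription factor gene whose mRNA IRE1 splices, read 2029 and 2028 on the scramble arrays, 2740.4 and 2943 with siRNA 1 and 2780.0 and 2578 with siRNA 2. Its scramble arrays were nearly equal and every knockdown array stood above them, at log2 changes of 0.49 and 0.40 (adjusted p = 0.116 and 0.108). These values are of total XBP1 signal, and spliced and unspliced forms were not told apart.

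**Figure D3:**
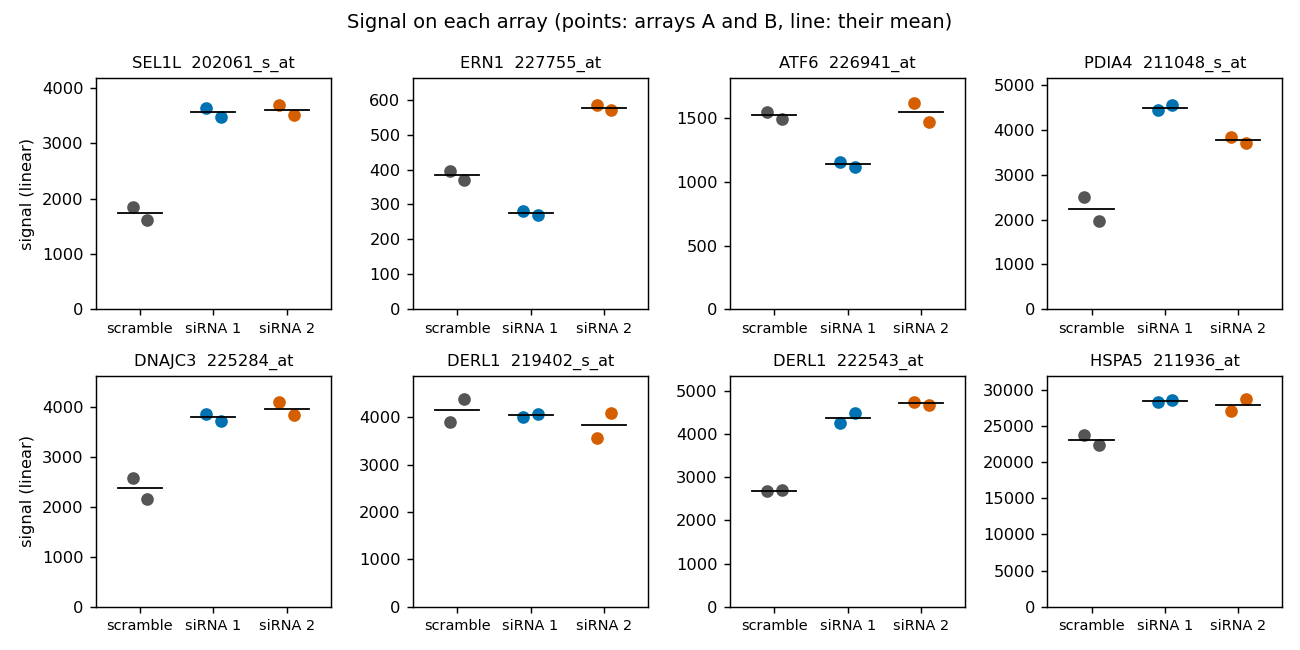
Linear signal on each array for 8 probe sets of 7 members, with 2 points (arrays A and B) and their mean as a line in each group; axes start at 0. SEL1L, PDIA4, DNAJC3 and HSPA5 are above scramble on all knockdown arrays, ERN1 is lowest with siRNA 1 and highest with siRNA 2, and 2 probe sets of DERL1 differ in pattern.

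Of the 4 translocon genes 0 were called by limma (unadjusted p under 0.05 for SSR1 with siRNA 1 and for SEC61A1 with siRNA 2). They form the SEC61 channel (SEC61A1 and SEC61B) and the translocon-associated complex beside it (SSR1 and SSR3). SEC61A1, the pore subunit, stood at 0.12 with siRNA 1 and 0.33 with siRNA 2, above scramble on every knockdown array. With siRNA 1 the other three read below both scramble arrays, SSR1 at -0.33, SEC61B at -0.25 and SSR3 at -0.13. With siRNA 2 the same genes stood at 0.0278, 0.0159 and 0.0793. SSR3 was thus below scramble on both siRNA 1 arrays (7441 and 6970.0, against 7866 and 7850.0) and above it on both siRNA 2 arrays (8152 and 8455). Its log2 difference between the siRNAs was -0.21, which was not called (adjusted p = 0.277). On 3 further probe sets of SSR3 the difference was -0.34, -0.31 and -0.74. For SSR1 the difference was -0.36 (adjusted p = 0.236), and its 5 further probe sets gave smaller differences on both sides of 0, of -0.19, -0.0889, 0.0743, 0.10 and 0.13 and siRNA 1 changes from -0.0446 to 0.24.

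Over the 33 members the siRNAs differed by a median log2 of 0.00111. An unadjusted limma p under 0.05 was reached in that contrast by 1 member higher with siRNA 1 (CALR, 0.27) and 3 lower (ERN1, ATF6 and SSR1), beside 9.16% and 9.53% of all genes tested. The mean of both siRNAs against scramble called 1 member higher, SEL1L, and 0 lower, beside 0.385% and 0.126% of all genes.

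Other probe sets of the same genes gave a further reading of each transcript that the choice by brightness did not use. Above the filter there were 51 of them, in 24 of the members, and they were fitted together with all 23969 single-symbol probe sets above it. With siRNA 1, 38 of the 51 had the sign of the brightest probe set, and with siRNA 2 28 had it. In that limma fit 0 of the 51 were called with either siRNA, but it called 0 of all 23969 probe sets with siRNA 1 (0% higher, 0% lower) and 1 with siRNA 2 (0.00417% higher, 0% lower). SEL1L's own brightest probe set was not called in it (adjusted p = 0.0834 and 0.0814). An unadjusted p under 0.05 was reached by 7 of the 51 higher and 1 lower with siRNA 1, beside 7.41% and 6.30% of all probe sets, and by 11 higher and 2 lower with siRNA 2, beside 9.17% and 8.87%. PDIA4 agreed in size, a second probe set (208658_at) giving 1.06 and 0.72. PDIA3 did not keep its sign with siRNA 2, at 0.0205 and -0.20 on 227033_at and 0.11 and -0.35 on 229453_at. On these probe sets the siRNA 2 arrays lay below scramble. PDIA6 gave 0.21 and 0.30 on 208639_x_at, 0.17 and -0.0722 on 208638_at and 0.21 and -0.0568 on 216640_s_at. P4HB stayed above 0, at 0.22 and 0.16 on 200656_s_at and 0.55 and 0.71 on 1564494_s_at. HSPA5 was further from scramble on its dimmer probe set, 230031_at, which read 1432 and 1239.7 on the scramble arrays, 2003 and 1989 with siRNA 1 and 2161 and 2114 with siRNA 2. The log2 change there was 0.58 (adjusted p = 0.172) and 0.68 (adjusted p = 0.103). No array overlapped with scramble there.

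The probe sets of DERL1 differed from each other. On its brightest, 219402_s_at, it read 3907 and 4382 on the scramble arrays, 4003 and 4068 with siRNA 1 and 3570.4 and 4084 with siRNA 2, and the groups overlapped (log2 changes -0.0361 and -0.12). On 222543_at it read 2680.1 and 2703 on the scramble arrays, 4262 and 4494 with siRNA 1 and 4754 and 4674 with siRNA 2. All 4 knockdown arrays were higher there, by 0.70 and 0.81 (adjusted p = 0.112 and 0.0819). Another probe set, 218172_s_at, gave 0.59 and 0.67, while the dim 225488_at gave -0.79 and -1.22.

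SEL1L had 3 further probe sets above the filter, and on all of them each knockdown array was above scramble. Their log2 changes were 1.20 and 1.16 for 202063_s_at, 0.52 and 0.65 for 202062_s_at, and 0.0572 and 0.0921 for 202064_s_at. DNAJB9 lay above 0 on both of its further probe sets, at 0.30 and 0.57 with siRNA 1, and at 0.81 and 0.83 with siRNA 2. Of 3 further probe sets of DNAJC3, 1558080_s_at gave 0.66 and 0.56, 235341_at 0.45 and 0.39, and 208499_s_at 0.00890 and -0.0850. CALR stood at 0.15 and -0.0854 on 200935_at and at 0.0359 and -0.0623 on 214315_x_at, below its brightest with both siRNAs. For ERN1 neither further probe set showed the split between the siRNAs, with -0.0128 and -0.25 on 235745_at and 0.54 and 0.53 on the dim 207061_at. ATF6 was below 0 with siRNA 1 on 231927_at (-0.58) and 217550_at (-0.21) and above it on 203952_at (0.16). The log2 difference of ATF6 between the siRNAs was -0.52, 0.00645 and 0.39 on these probe sets, in the same order.

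**Figure D4:**
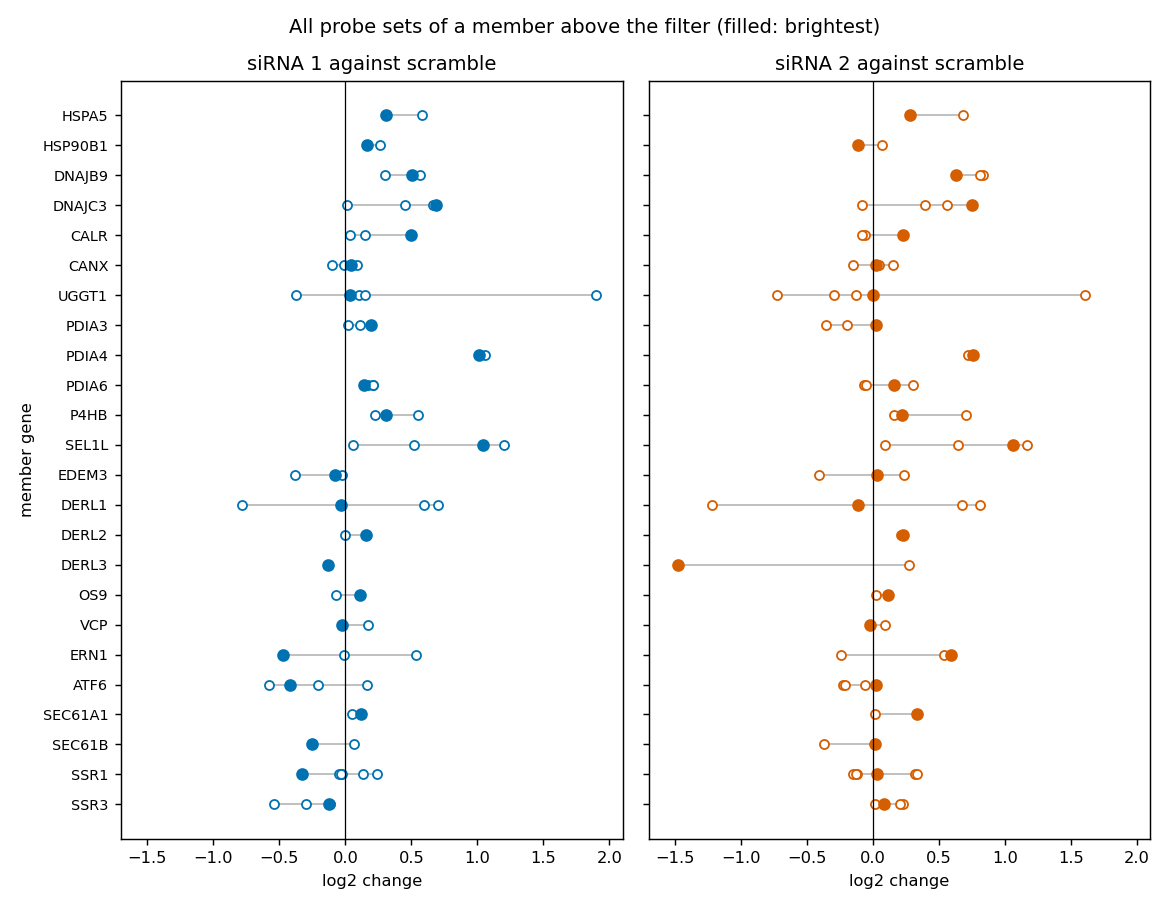
Log2 change against scramble of every probe set above the filter for the 24 members with more than 1, with siRNA 1 on the left and siRNA 2 on the right. Filled points are the brightest probe set of a gene and open points the others. PDIA4 points lie together, while those of DERL1 lie on both sides of 0.

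The rest of the pathway was read from 9 neighbouring lists that hold no member, of which 162 genes were tested. With siRNA 1, 0 were called higher and 2 lower, beside 0.212% and 0.181% of all genes tested. With siRNA 2, 3 were called higher and 1 lower, beside 0.440% and 0.157%. As for SEL1L, none of these calls stood when any 1 array was left out, since limma then called 0 of 12735 genes in every contrast (1461 to 1925 genes at an unadjusted p under 0.05 with siRNA 1 and 1911 to 2397 with siRNA 2). Their median log2 changes were 0.0475 and 0.0656. The list named for the PERK and ATF4 branch had the highest median of the 9 lists, 0.66 with siRNA 1 and 0.53 with siRNA 2 (n = 15 genes). PERK signalling is the third arm of the unfolded protein response. The gene of PERK itself is not among these 15, and whether PERK was active was not tested. In that list 13 of 15 stood above 0 with each siRNA. ASNS, asparagine synthetase, rose from 2844 ± 124 to 6510.4 ± 367 (SD, n = 2 arrays) with siRNA 2, which is 1.19 on the log2 scale (limma adjusted p = 0.0461). CHAC1, which degrades glutathione, and the pseudokinase gene TRIB3 also rose with this siRNA, by 1.16 (adjusted p = 0.0490) and 0.92 (adjusted p = 0.0492) on the log2 scale. With siRNA 1 they stood at 0.66 (ASNS), 0.72 (CHAC1) and 0.66 (TRIB3), not called, and the differences between the siRNAs were not called (adjusted p = 0.0885, 0.173 and 0.251). DDIT3, the transcription factor CHOP, stood at 0.87 and 1.11, not called (adjusted p = 0.195 and 0.0950). NUPR1, a small stress-induced nuclear protein, was dim and stood at 0.78 and 1.07.

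The 3 genes called in the other lists fell, 2 with siRNA 1 and 1 with siRNA 2. MMGT1 (EMC5), a subunit of the ER membrane protein complex that inserts membrane proteins, fell from 2299.8 ± 62.9 to 588 ± 15.4 (SD, n = 2 arrays) with siRNA 1, which is -1.97 on the log2 scale (limma adjusted p = 0.0368), and stood at 0.0675 with siRNA 2. The siRNAs differed for MMGT1 by -2.03 (adjusted p = 0.0418). The other 9 subunits of that complex were not called, with EMC4 at -0.11 and -0.25 and EMC6 at 0.0642 and 0.24, and the list's median was -0.0291 and 0.0245. UBQLN1, a ubiquitin receptor that carries ERAD substrates to the proteasome, fell from 9325 ± 303 to 4466 ± 327 (SD, n = 2 arrays) with siRNA 1, which is -1.06 on the log2 scale (limma adjusted p = 0.0470), and stood at -0.34 with siRNA 2. UGGT2, the paralogue of UGGT1, fell from 1226 ± 90.5 to 606 ± 48.1 (SD, n = 2 arrays) with siRNA 2, which is -1.02 on the log2 scale (limma adjusted p = 0.0478), and stood at -0.30 with siRNA 1. Between the siRNAs neither UBQLN1 nor UGGT2 was called (adjusted p = 0.0722 and 0.0812).

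The further ERAD genes, UBQLN1 among them, had medians of 0.0672 and 0.0910 (n = 31 genes), with UBXN8, which tethers VCP to the ER, at 0.42 and 0.48 and the VCP cofactor NPLOC4 at 0.36 and 0.26. In the 5 lists not yet named for a call, 0 genes were called by limma. The further translocon, targeting and signal peptidase genes had medians of 0.14 and 0.17 (n = 21 genes, 15 and 16 above 0, 5 and 8 higher at an unadjusted p under 0.05 and 0 lower). SPCS3, a signal peptidase subunit, stood at 0.34 and 0.53, and SRPRA, the receptor of the signal recognition particle, at 0.51 and 0.43. The further disulfide isomerases and oxidases had medians of 0.0597 and 0.0414 (n = 14 genes; at an unadjusted p under 0.05, 3 higher and 1 lower with siRNA 1, 3 and 3 with siRNA 2), with the oxidase ERO1B at 0.71 and 0.91 and TMX4 at 0.43 and 0.33. MBTPS1, the protease that cuts ATF6, led the remaining sensor genes at 0.94 and 0.86, followed by RTCB, the ligase that joins XBP1 exons, at 0.39 and 0.53. At an unadjusted p under 0.05 there were 3 higher and 0 lower of these 12 genes with siRNA 1, and 4 higher and 1 lower with siRNA 2.

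Genes of the same kind outside the ER, cytosolic and mitochondrial heat shock proteins, had medians of -0.0121 and -0.0307 (n = 20 of 25 listed genes), with 10 and 8 above 0. The others, HSPA1A, HSPA1B and HSPA8 among them, had no probe set under the rule and are not part of these medians. At an unadjusted p under 0.05 there were 1 higher and 2 lower with siRNA 1, and 1 and 1 with siRNA 2. HSPA4L stood at -0.45 and -0.53 and DNAJB4 at 0.29 and 0.28. The N-glycan attachment and trimming genes had medians of 0.00352 and -0.0426 (n = 22 genes), with PRKCSH, a glucosidase subunit, at 0.27 and 0.53 and the glucosidase MOGS at -0.59 and 0.00779. The further co-chaperones and prolyl isomerases had 0.0198 and 0.00114 (n = 17 genes; at an unadjusted p under 0.05, 1 higher and 0 lower with siRNA 1, 2 and 1 with siRNA 2). Among these, FKBP11 stood at 0.43 and 0.34 and SDF2 at -0.23 and -0.44.

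**Figure D5:**
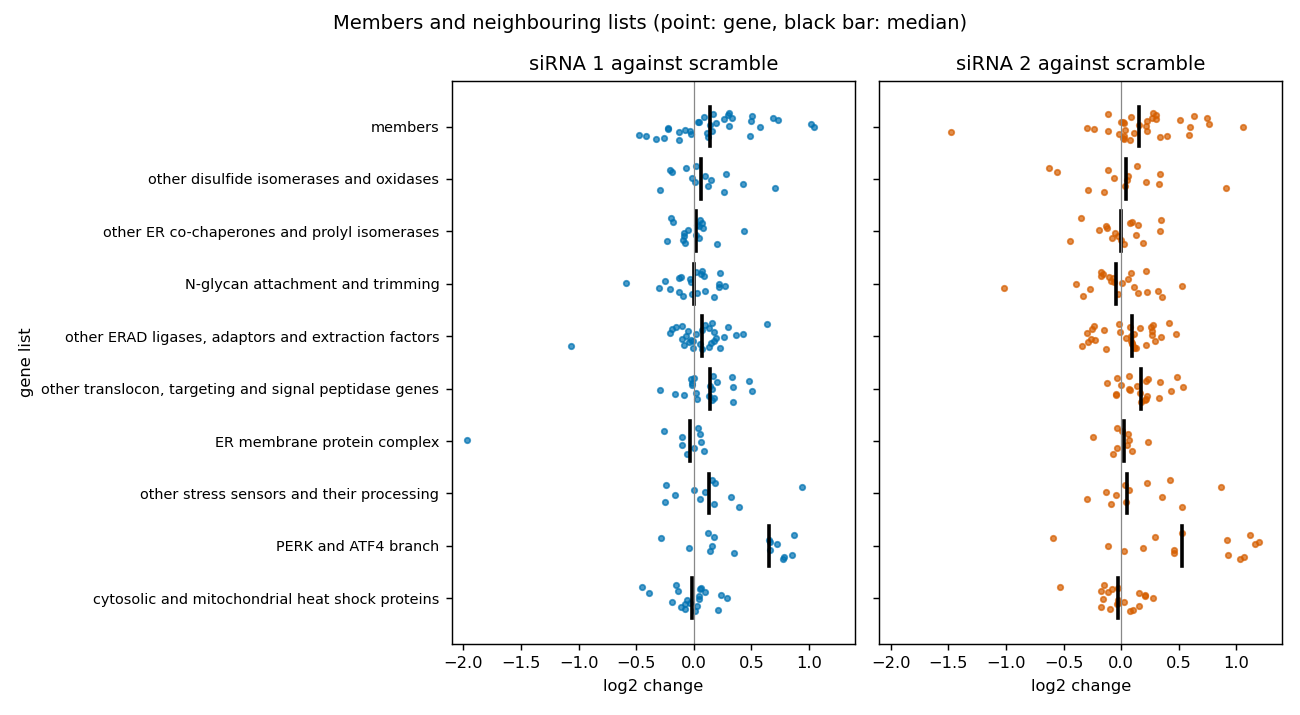
Log2 change against scramble of every tested gene of the members and of the 9 neighbouring lists, with siRNA 1 on the left and siRNA 2 on the right; the black bar is the list's median. The members' bars stand at 0.14 and 0.16, those of the PERK and ATF4 branch at 0.66 and 0.53, and those of the heat shock proteins just below 0.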

How the data were processed

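The values the authors deposited are linear signal intensities of 54675 probe sets on 6 arrays. They name Affymetrix Expression Console (per the submitters' processing notes), whose algorithm is not given in the sources used here. Trimming 2% from each tail gave an array mean of 500.067 to 500.07, and array medians were 69.3 to 76.2. Groups came from the sample titles; 1 title of siRNA 1 spells the target differently.

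Values were used as log2(signal + 1). Probe sets with 1 symbol (41091, of which 41037 matched a RefSeq Entrez identifier and 0 changed symbol) were kept, 1 per gene, the highest in mean log2 signal. Testing required a signal over the median (percentile 50) on 2 or more arrays. Groups were compared with limma 3.58.1 (R 4.3.3; 1 coefficient per group over all 6 arrays, eBayes, Benjamini-Hochberg over all genes tested; 3 residual and 1.72 prior degrees of freedom). The fit was tested on simulated data. Figures used matplotlib 3.10.9.

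The members and lists were chosen with earlier results of these data known. The text names all members and, from each neighbouring list, the genes called against scramble and the next 2 by mean change. Other settings were quantile normalization, median centring, a pseudocount of 16, other filters and probe-set choices, an intensity trend, the replicate letter as a block, fits of the compared groups alone and leaving out each array.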

Additional observations from a re-analysis of the deposited data

Results flagged for a closer look

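ERN1 differed between the siRNAs by the limma contrast of siRNA 1 minus siRNA 2, at a log2 difference of -1.07 (adjusted p = 0.0467). Both siRNA 1 arrays read below and both siRNA 2 arrays above the scramble arrays on this probe set.

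A signal also appeared outside the probe sets used. HSP90B1 has a brighter probe set, 200599_s_at, that also carries the symbol MIR3652 and was therefore left out. It read 12662 and 13086 on the scramble arrays, 15105 and 14475 with siRNA 1 and 14365 and 15417 with siRNA 2, so that the lowest knockdown array, at 14365.3, stood above both scramble arrays. Its log2 changes were 0.20 and 0.21 (limma adjusted p = 0.339 and 0.255), where the probe set used for the gene gave 0.16 and -0.12. Another probe set left out for the same symbol, 200598_s_at, read 4946 and 4425 on the scramble arrays. With siRNA 1 it read 6007.5 and 5272, above scramble, and with siRNA 2 it read 4487 and 4711, overlapping with scramble.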

How the results depend on the processing

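Calls of single members depended on the setting. Quantile normalization left 0 members called with siRNA 1 and 0 between the siRNAs. Median centring, no filter, the mean of probe sets, probe sets of the unique type and the replicate block each left 0 members called in any contrast, and so did fits of the compared groups alone, in the 3 contrasts that could be fitted. Without each of the 6 arrays in turn 0 to 0 were called. Without any 1 array, with no filter, with the replicate block and in fits of the compared groups alone, limma called 0 genes of any kind in every contrast fitted, so the calls of PPP2R2A, ASNS, CHAC1, TRIB3, MMGT1, UBQLN1 and UGGT2 ended too. Requiring a signal above the median on all 6 arrays raised the calls to 4 higher with siRNA 1 (DNAJC3, CRELD2, PDIA4 and SEL1L), 5 higher with siRNA 2 (DNAJC3, PDIA4, SEL1L, HERPUD1 and ERN1) and 4 for their mean, among 134 higher and 110 lower, and 254 higher and 145 lower, of 10868 genes tested. An intensity trend gave 4, 6 (adding DNAJB9) and 4, among 175 higher and 124 lower, and 292 higher and 180 lower. A pseudocount of 16, and keeping probe sets with several symbols (added after the data were seen), kept SEL1L and ERN1 as the calls. The cause of these shifts was not tested.

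The members' median kept its sign against scramble throughout. With siRNA 2 it was 0.11 for the mean of probe sets and 0.22 for probe sets of the unique type. Leaving out 1 array gave 0.0832 to 0.24 with siRNA 1, 0.11 to 0.26 with siRNA 2 and 0.0545 to 0.21 for the mean of both, the extremes without scramble B and scramble A. Between the siRNAs the median lay between -0.0267 and 0.0296. Of the 33 members 25 kept their sign with siRNA 1 in all settings and 20 with siRNA 2, and 8 and 13 did not. ERN1 with siRNA 1 turned to 0.0165 on the mean of its probe sets. Same-lettered arrays did not deviate together (correlations of -0.0309 to 0.0383), so the replicate block pairs arrays by a shared letter alone. Under it SEL1L stood at 1.04 (adjusted p = 0.158) and 1.06 (adjusted p = 0.129).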
